A study of Bos taurus with 6 samples.

Results

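The miR-148 family, to which miR-152 belongs, and the miR-200 family are microRNA (miRNA) families known from milk and from epithelial cells. Their members were taken by name from the table of miRNA counts: bta-miR-148a, bta-miR-148b and bta-miR-152 of the first family, and bta-miR-200a, bta-miR-200b, bta-miR-200c, bta-miR-141 and bta-miR-429 of the second. The epithelial miRNA bta-miR-205 was added as a marker outside both families. All 9 names were found, among 276 known bovine miRNAs (those with a miRBase name) and 779 known and predicted miRNAs in all.

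The counts came from small RNA libraries of milk extracellular vesicles (EVs), 1 library for each of 6 Holstein cows in mid lactation. All 6 cows were kept in environment-controlled chambers at a constant temperature and humidity. The control group of 3 cows ate a total mixed ration (TMR), and the replacement group of 3 cows ate a feed with soybean hull and whole cotton seed in place of some of the alfalfa hay. Age and parity are not given in the sources used here.

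A miRNA silences messenger RNAs that pair with its seed, a short stretch near its 5′ end, so members of a family with a common seed can share targets. The miR-148 family is known to repress the DNA methyltransferase DNMT1, and miR-148a is a typical miRNA of lactating mammary epithelium and of milk. The miR-200 family and miR-205 repress the transcription factors ZEB1 and ZEB2 and thereby keep cells epithelial.

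The mature sequences in the deposited table are shown because both families are defined by them. They run from 5′ to 3′ with T in place of U, and capitals mark the seed, bases 2 to 8.

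bta-miR-148a: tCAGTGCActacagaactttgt

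bta-miR-148b: tCAGTGCAtcacagaactttgt

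bta-miR-152: tCAGTGCAtgacagaacttggg

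bta-miR-200a: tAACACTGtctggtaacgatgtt

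bta-miR-141: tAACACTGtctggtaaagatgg

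bta-miR-200b: tAATACTGcctggtaatgatg

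bta-miR-200c: tAATACTGccgggtaatgatgga

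bta-miR-429: tAATACTGtctggtaatgccgt

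bta-miR-205: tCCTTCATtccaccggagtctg

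The 3 members of the miR-148 family had 1 seed in common. The miR-200 family fell into 2 seed groups, bta-miR-200a with bta-miR-141, and bta-miR-200b with bta-miR-200c and bta-miR-429, and the seed of bta-miR-205 stood apart. Of the remaining miRNAs in the table, 0 known and 0 predicted ones had the seed of a member. Outside the seed the relatives were close. With positions counted from 1 at the 5′ end and the base of the first-named miRNA written first, bta-miR-148a and bta-miR-148b differed by C9T and T10C. Between bta-miR-148b and bta-miR-152 the differences were C10G, T20G and T22G. Over their first 22 bases bta-miR-200a and bta-miR-141 differed by C17A and T22G, and over 21 bases bta-miR-200b and bta-miR-200c differed by T11G alone. How reads that match several miRNAs were assigned is not given in the sources used here, so the split of counts between these pairs is uncertain.

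The members come from several genes, named here from the RefSeq annotation of the assembly ARS-UCD2.0, in which all 9 names matched a gene. MIR148B lies within the span of COPZ1 and MIR152 within that of COPZ2, genes of the zeta subunits of the COPI vesicle coat. MIR148A overlaps the annotated MIR148D, and MIR152 overlaps MIR148C. The miR-200 family has 2 clusters, MIR200B with MIR200A and MIR429, and MIR200C with MIR141, each with its genes within 10 kb of each other. MIR205 has no miRNA gene within that distance. Coordinates are not given because the reads were aligned to an earlier assembly.

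Known miRNAs received 70490, 161240 and 61156 counts in control cows 1 to 3, and 176919, 96254 and 69625 counts in replacement cows 1 to 3. Expression was taken as the share of these counts in each cow. A count of 0 still allowed a share of up to 0.00170% in the deepest library and 0.00491% in the shallowest, the limit set by 3 counts. These limits and the Wilson intervals below cover counting error only, since PCR copies of a molecule were counted as separate reads. For pairs of cows on the same diet, the chi-square of their known miRNA counts, divided by its degrees of freedom, was 28.6 to 92.1. These values take in the differences between animals and the PCR copies as well as counting error. The library of replacement cow 2 stood apart for the miRNAs described here. Of the 114 known miRNAs with a count in every other cow, 11 were at 0 in this library, and 4 of these were members: bta-miR-200a, bta-miR-200c, bta-miR-141 and bta-miR-205. In each of the other cows, between 1 and 5 known miRNAs were at 0 while all other cows had counts. Means of these members and of bta-miR-148a are therefore also given without replacement cow 2.

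The most abundant member was bta-miR-148a. Its share was 0.851%, 0.755% and 0.657% in control cows 1 to 3 and 0.751%, 0.351% and 0.468% in replacement cows 1 to 3, from 326 to 1329 counts. Replacement cows 2 and 3 were the lowest, while replacement cow 1 lay within the range of the control cows, so the diets overlapped. The mean was 0.639% ± 0.192 (SD, n = 6 cows), or 0.697% without replacement cow 2. It placed bta-miR-148a at rank 27 of the known miRNAs, with ranks from 20 to 37 in single cows. Its coefficient of variation over the cows was 0.30, against a median of 0.333 for the 70 known miRNAs with at least 20 counts in every cow, 28 of which varied less. This comparison holds for shares of known miRNA counts. With the counts of all miRNAs as the total the coefficient was 0.454. As RPM, the deposited values scaled by the reads of each library, it was 0.628. A median under these totals is not given.

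The paralog bta-miR-148b, which differs from bta-miR-148a at 2 positions just behind the seed, was much rarer. Its share was 0.0426%, 0.0298% and 0.0245% in control cows 1 to 3 and 0.0164%, 0.0208% and 0% in replacement cows 1 to 3. Every replacement cow was below every control cow. The gap was narrow in counts, since control cow 3 had 15 counts (95% Wilson interval 0.0149% to 0.0405%) and replacement cow 2 had 20 counts (0.0135% to 0.0321%). The separation also depended on the total. As RPM, the deposited values scaled by the reads of each library, bta-miR-148b was 2.29, 3.81 and 1.21 in control cows 1 to 3 and 2.17, 1.65 and 0 in replacement cows 1 to 3, and the diets overlapped.

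The third member, bta-miR-152, was found in few cows. It had 0, 37 and 1 counts in control cows 1 to 3 and 0, 0 and 55 counts in replacement cows 1 to 3. Control cow 2 and replacement cow 3 thus held nearly all of its counts, and each diet had 1 cow with counts above 1. The share was 0.0790% in replacement cow 3 (95% Wilson interval 0.0607% to 0.103%) and 0.0229% in control cow 2 (0.0166% to 0.0316%), with a mean over the 6 cows of 0.0173% ± 0.0316 (SD). Without replacement cow 3 the mean was 0.00492%. In that cow bta-miR-148b was at 0 while bta-miR-152 was at its highest.

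As a whole, the miR-148 family held 0.894%, 0.807% and 0.683% in control cows 1 to 3 and 0.768%, 0.372% and 0.547% in replacement cows 1 to 3. Control cow 3 was below replacement cow 1, so the diets overlapped, with means of 0.795% ± 0.106 (SD, n = 3) for control and 0.562% ± 0.198 (SD, n = 3) for replacement, or 0.657% for replacement without cow 2. The order of these means depended on the total, and known miRNAs took 15.8% to 42.0% of the counts of all miRNAs in single cows. With the counts of all miRNAs as the total, the mean was 0.178% ± 0.0642 (SD, n = 3) for control and 0.198% ± 0.108 (SD, n = 3) for replacement. Nearly all counts of the family were bta-miR-148a, which made up 93.5% to 97.9% of it in 5 cows. The exception was replacement cow 3 with 85.6% (95% Wilson interval 81.7% to 88.7%), where bta-miR-152 made up 14.4%.

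**Figure D1:**
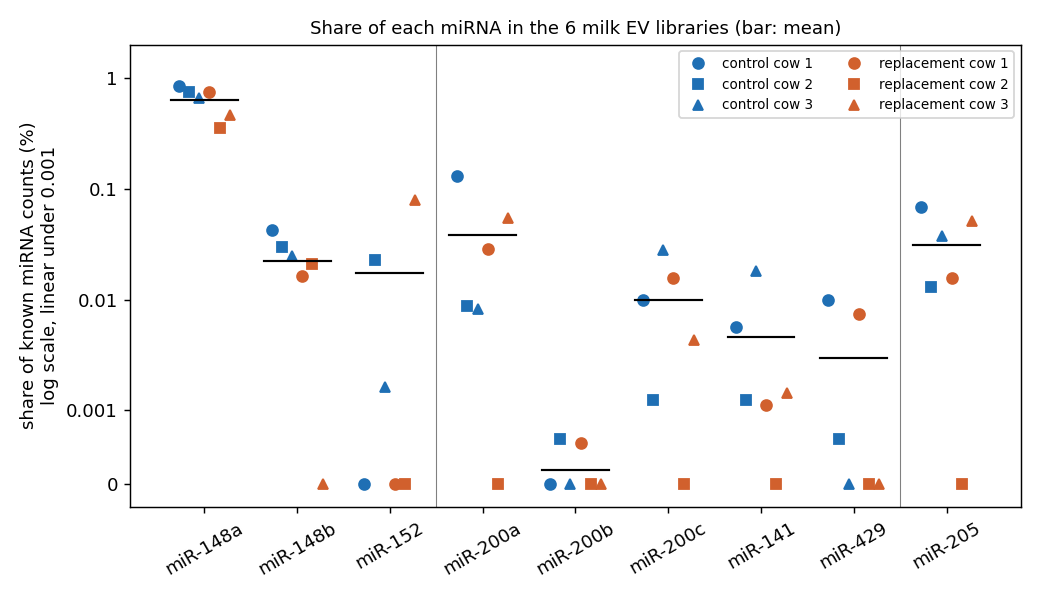
Share of known miRNA counts (%, log scale above 0.001%, linear below) for each miRNA in 3 control cows (blue) and 3 replacement cows (orange), with symbols for the cow number and a bar at the mean of the 6 cows. The points of miR-148a, from 0.351% to 0.851%, lie above all others, and replacement cow 2 is at 0 for all members of the miR-200 family and for miR-205.

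In the miR-200 family, bta-miR-200a was the most abundant member. It had 92, 14 and 5 counts in control cows 1 to 3 and 51, 0 and 38 counts in replacement cows 1 to 3. Control cow 1 was the highest with 0.131% (95% Wilson interval 0.106% to 0.160%), the remaining control cows were among the lowest, and the diets overlapped. The mean was 0.0385% ± 0.0492 (SD, n = 6), or 0.0201% without control cow 1 and 0.0462% without replacement cow 2. In each of the 6 cows bta-miR-200a was lower than bta-miR-148a, 16.6-fold by the ratio of the means, or 29.7-fold without control cow 1.

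The cluster of MIR200C and MIR141 gave fewer counts. Its member bta-miR-200c had 7, 2 and 17 counts in control cows 1 to 3 and 28, 0 and 3 counts in replacement cows 1 to 3. By share, control cow 3 was the highest with 0.0278% (95% Wilson interval 0.0174% to 0.0445%), followed by replacement cow 1 with 0.0158% (0.0110% to 0.0229%), so each diet had a high and a low cow. The mean was 0.00985% ± 0.0106 (SD, n = 6), or 0.00626% without control cow 3 and 0.0118% without replacement cow 2. The neighbour bta-miR-141 had 4, 2 and 11 counts in control cows 1 to 3 and 2, 0 and 1 counts in replacement cows 1 to 3. It was highest in control cow 3, as was bta-miR-200c, and its mean was 0.00458%, or 0.00190% when this cow was left out and 0.00549% without replacement cow 2. The diets overlapped by share. As RPM they did not, with 0.305, 0.159 and 0.885 in control cows 1 to 3 and 0.150, 0 and 0.0793 in replacement cows 1 to 3, where control cow 2 and replacement cow 1 had the same 2 counts. As RPM it was the only member of the 9 lower in every replacement cow, against 8 of the 276 known miRNAs (2.9%).

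By mean share the rarest members were bta-miR-429 and bta-miR-200b, although by summed counts bta-miR-141, with 20, was just below bta-miR-429, with 21. Control cow 1 had 7 counts of bta-miR-429, control cow 2 had 1, replacement cow 1 had 13, and the remaining cows had 0. For bta-miR-200b there were 2 counts in all, 1 in control cow 2 and 1 in replacement cow 1, which is within the limit of a count of 0. It lies in 1 cluster with bta-miR-200a, which had 200 counts.

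Summed over its 5 members, the miR-200 family held 0.156%, 0.0124% and 0.0540% in control cows 1 to 3 and 0.0537%, 0% and 0.0603% in replacement cows 1 to 3. Control cow 2 and replacement cow 2 were low, control cow 1 was high, and the diets overlapped. The 20 counts of control cow 2 (95% Wilson interval 0.00803% to 0.0192%) and the 0 counts of replacement cow 2 (limit 0.00312%) differed by more than counting error. The mean was 0.0561% ± 0.0549 (SD, n = 6), or 0.0673% without replacement cow 2 and 0.0361% without control cow 1. By diet it was 0.0741% ± 0.0739 (SD, n = 3) for control and 0.0380% ± 0.0331 (SD, n = 3) for replacement, or 0.0570% for replacement without cow 2. The order of the diets rested on control cow 1, without which the control mean was 0.0332%, below that of the replacement cows. Because EVs were sequenced in bulk, fewer EVs from a cell type and less of a miRNA in each EV cannot be told apart.

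The make-up of the miR-200 family varied more between cows than that of the miR-148 family. In control cow 1, bta-miR-200a made up 83.6% of the family (95% Wilson interval 75.6% to 89.4%), and in replacement cow 3 it made up 90.5% (77.9% to 96.2%). It also led in control cow 2 with 70% (48.1% to 85.5%) and in replacement cow 1 with 53.7% (43.7% to 63.4%). In control cow 3 it made up 15.2% (6.65% to 30.9%), while bta-miR-200c made up 51.5% and bta-miR-141 33.3%. The interval of control cow 3 lay below those of the other 4 cows, so this difference was larger than counting error. Counts of the cluster of MIR200B, MIR200A and MIR429 were 99, 16 and 5 in control cows 1 to 3 and 65, 0 and 38 in replacement cows 1 to 3. Those of the cluster of MIR200C and MIR141 were 11, 4 and 28 in control cows 1 to 3 and 30, 0 and 4 in replacement cows 1 to 3. The first cluster was thus the larger in 4 of the 5 cows with counts, and the second was the larger in control cow 3.

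**Figure D2:**
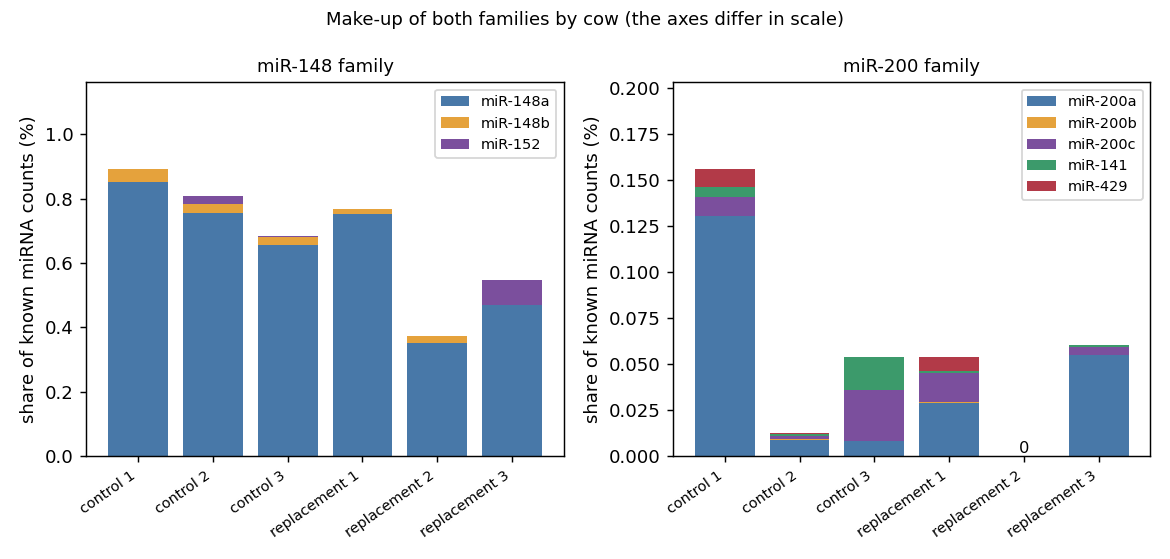
Stacked bars of the share of known miRNA counts (%) of each member in the 6 cows, for the miR-148 family on the left and the miR-200 family on the right, on axes that start at 0 and differ in scale. Each miR-148 bar is mostly miR-148a, whereas miR-200a leads in 4 cows, miR-200c leads in control cow 3, and replacement cow 2 has no miR-200 counts.

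The bar chart of both families shows these cows side by side. The order of the members by mean share was bta-miR-148a, bta-miR-200a, bta-miR-205, bta-miR-148b, bta-miR-152, bta-miR-200c, bta-miR-141, bta-miR-429 and bta-miR-200b. The range of bta-miR-148a lay above that of bta-miR-200a in full. Single cows fixed part of this order. Without control cow 1, bta-miR-200a with 0.0201% was below bta-miR-205 with 0.0236%, and bta-miR-148b with 0.0183% was below bta-miR-152 with 0.0207%. Without replacement cow 3, bta-miR-152 was below bta-miR-200c, and without control cow 3, bta-miR-141 was below bta-miR-429. All further neighbours in the order had overlapping ranges, for example bta-miR-200a and bta-miR-205, of which the first was higher in 3 cows and the second in 2.

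The marker bta-miR-205 held 0.0681%, 0.0130% and 0.0376% in control cows 1 to 3 and 0.0158%, 0% and 0.0517% in replacement cows 1 to 3. Control cow 1 was the highest, replacement cow 2 had no count against 21 to 48 counts in the other cows, and the diets overlapped. The mean was 0.0310% ± 0.0259 (SD, n = 6), or 0.0373% without replacement cow 2. In replacement cow 2, bta-miR-205 and the miR-200 family were thus all at 0. This library was the third deepest in known miRNA counts. It had the fewest reads behind the RPM values, 12130660 against 12427878 to 13369168. Replacement cows 2 and 3 had the lowest counts of all miRNAs, 273652 and 271061, and the fewest known miRNAs detected.

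A list of 9 other miRNAs typical of epithelia was examined beside these markers, and 7 of them were in the table. Together they held 0.224%, 0.140% and 0.406% in control cows 1 to 3 and 0.124%, 0.189% and 0.537% in replacement cows 1 to 3, with bta-miR-224 as the most abundant on average. Replacement cow 2, without miR-200 counts, was within the range of the other cows in this sum but not in each member. It had 46 counts of bta-miR-375, 39 of bta-miR-183, 40 of bta-miR-184, 38 of bta-miR-224, 16 of bta-miR-96 and 3 of bta-miR-182, and 0 of bta-miR-31. Its shares of bta-miR-224, 0.0395%, and of bta-miR-182, 0.00312%, were the lowest of the 6 cows, while bta-miR-184 was at 0 in 3 other cows. The names miR-203 and miR-34c were not among the known miRNAs listed.

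Summed over their lists, markers of most other cell types and tissues were at higher shares than the miR-200 family and bta-miR-205. The leukocyte list, led by bta-miR-150 of lymphocytes, held 2.67% ± 0.550 (SD, n = 6), and the red blood cell list, led by bta-miR-486, held 9.07% ± 4.63 (SD, n = 6). The stroma and vessel list, led by bta-miR-126-3p of endothelium, held 1.41% ± 0.382 (SD, n = 6), and the liver miRNA bta-miR-122 held 0.373% ± 0.229 (SD, n = 6). In each of the 6 cows, bta-miR-122 was above the sum of the miR-200 family. Some single markers were below the mean of that sum, 0.0561%. In the leukocyte list these were bta-miR-142-3p with 0.000273%, bta-miR-155 with 0.0455% and bta-miR-223 with 0.0480%. In the stroma and vessel list they were bta-miR-145 with 0.00362%, bta-miR-214 with 0.0191% and bta-miR-199a-5p with 0.0251%. The other miRNAs of these lists were above it. The exception among the lists was the muscle list, led by bta-miR-1, with 0.0119% ± 0.0170 (SD, n = 6). Both the mean and the lead rested on replacement cow 3. Without this cow the list held 0.00800% in the control cows and 0.00137% in the replacement cows. In the control cows bta-miR-1, with 0.00102%, was below bta-miR-133a, with 0.00378%, and bta-miR-206, with 0.00320%. In replacement cows 1 and 2 it was the highest of the list, from 2 and 1 counts. The red blood cell list was highest in control cow 3 with 17.7%, the cow in which bta-miR-200c led its family, against 4.87% to 9.31% in the others. Of its 5 names 4 were in the table, and none of these was at 0 in any cow. In the leukocyte list, bta-miR-142-3p had 1 count in control cow 3 and 0 in the others. In the stroma and vessel list, bta-miR-199a-5p and bta-miR-214 were at 0 in replacement cow 2, and bta-miR-145 in replacement cow 1. The muscle list was highest in replacement cow 3 with 0.0445%, the cow with the most bta-miR-152, against at most 0.0142% in the others. This rested on 31 counts of bta-miR-1, while bta-miR-133a and bta-miR-206 were at 0 there. With the red blood cell list taken out of the total, the mean share was 0.704% for bta-miR-148a and 0.0623% for the miR-200 family. Which cells the counts of the members came from was not tested.

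**Figure D3:**
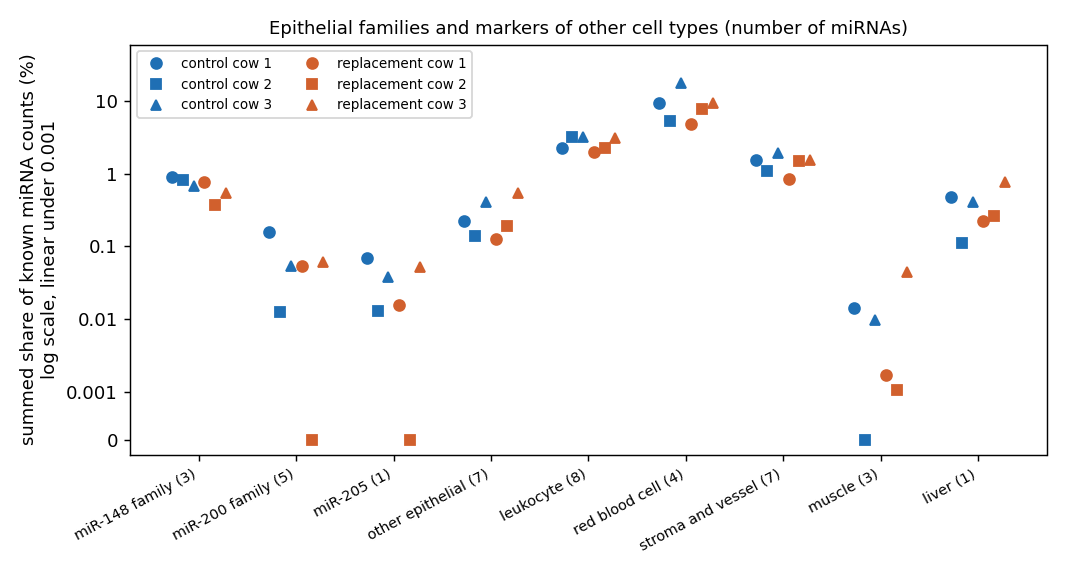
Summed share of known miRNA counts (%, log scale above 0.001%, linear below) of both families, miR-205 and the marker lists in 3 control cows (blue) and 3 replacement cows (orange), with the number of miRNAs in the table in brackets. The leukocyte and red blood cell lists lie above the miR-200 family in every cow, and replacement cow 2 is at 0 for the miR-200 family and miR-205 but not for the other epithelial list.

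The patterns of bta-miR-148a and bta-miR-200c over the cows were compared with those of the known miRNAs that had at least 20 counts in every cow, 69 without the members. Likeness was measured as the root mean square difference between log2 shares, each centred on its own mean over the 6 cows, with 0.5 added to each count. For bta-miR-148a the most alike was bta-miR-23a with a difference of 0.10, followed by bta-miR-29a with 0.28 and bta-miR-423-5p with 0.36, where the median of all candidates was 0.65. The share of bta-miR-23a was 0.715%, 0.608% and 0.482% in control cows 1 to 3 and 0.556%, 0.252% and 0.406% in replacement cows 1 to 3. Both miRNAs were thus highest in control cow 1 and lowest in replacement cow 2. For bta-miR-200c the most alike were bta-miR-224 with 1.40, bta-miR-199a-3p with 1.47 and bta-miR-29a with 1.67, and the median was 2.06. These values say little, since bta-miR-200c had 0 to 28 counts and no candidate could share its 0 in replacement cow 2. Shares of 1 total are not independent of each other.

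**Figure D4:**
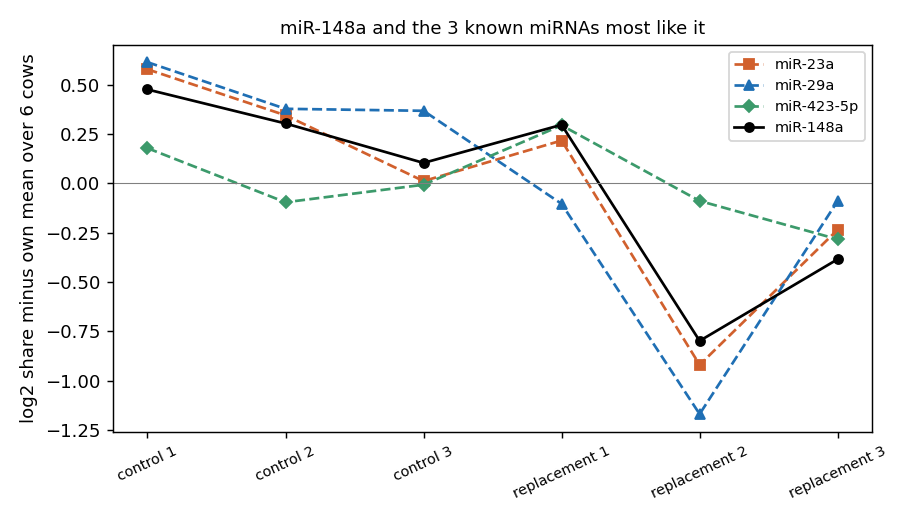
Log2 share of miR-148a (black) and of the 3 known miRNAs most like it in each of the 6 cows, each minus its own mean over the cows. The line of miR-23a runs closest to that of miR-148a, at a root mean square difference of 0.10, and miR-148a, miR-23a and miR-29a are lowest in replacement cow 2.

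The diet comparison asked whether the feed was accompanied by a different level of any miRNA. None of the members was called. The filter on low counts kept 227 miRNAs, among them 4 members, bta-miR-148a, bta-miR-148b, bta-miR-200a and bta-miR-205, while the 5 rarest members were not tested. By the quasi-likelihood test of edgeR, with p-values adjusted after Benjamini and Hochberg, 0 of these 4 were called at an adjusted p under 0.05, where 0 of all 227 (0%) were called. At an unadjusted p under 0.05 there were 8 miRNAs and no member, and the smallest adjusted p was 0.593. DESeq2, which gave 6 members an adjusted p, called 7 of 390 miRNAs and no member, and limma-voom called 0.

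The log2 fold change of bta-miR-148a, replacement over control, was -0.40 (SE 0.52). That of bta-miR-148b was -1.18 (SE 1.43), that of bta-miR-200a was -0.71 (SE 1.68) and that of bta-miR-205 was -0.82 (SE 1.50). In this fit each was smaller than its standard error. By limma-voom 3 of the 4 were larger, namely bta-miR-148a with -0.55 (SE 0.48), bta-miR-148b with -2.17 (SE 1.52) and bta-miR-205 with -1.91 (SE 1.64). So was bta-miR-148a with known miRNAs as the total, -0.53 (SE 0.43), or with only known miRNAs in the fit, -0.46 (SE 0.43). Each of the 4 had an adjusted p of 0.986 by edgeR, and over 15 other settings, DESeq2 and limma-voom included, their adjusted p ran from 0.361 to 0.999. All 4 estimates were negative, as were 63 of the 128 known miRNAs tested, although that of bta-miR-148a changed sign to 0.15 with library size alone. With that scaling the median of all miRNAs moved from 0.03 to 0.62. Leaving out single cows moved the values widely. Without replacement cow 1, bta-miR-148a was at -1.11 (SE 0.41), with an unadjusted p of 0.038 and an adjusted p of 0.361 by edgeR, and without replacement cow 2 it was at -0.15. For bta-miR-200a the sign depended on control cow 1, without which the value was 1.53. The value of bta-miR-148b ran from -1.68 without replacement cow 1 to -0.62 without replacement cow 3, and that of bta-miR-205 from -1.76 without replacement cow 3 to -0.24 without control cow 1. By non-overlap of the shares, 1 of the 5 members with a mean count of at least 10, bta-miR-148b, was lower in every replacement cow, against 7 of 144 known miRNAs (4.86%) at such counts.

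**Figure D5:**
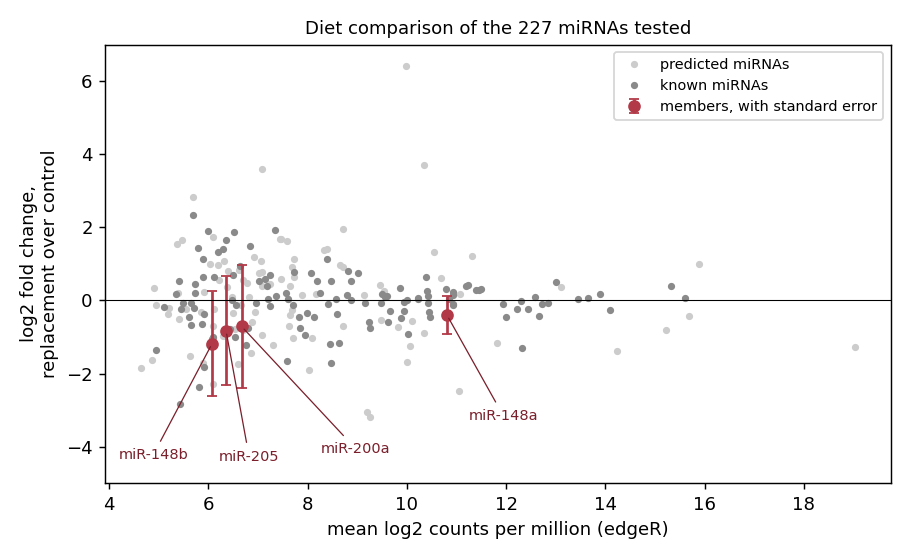
Log2 fold change, replacement over control, against the mean level from edgeR (log2 CPM, counts scaled by library) for the 227 miRNAs tested, with predicted miRNAs in light grey, known miRNAs in dark grey and the 4 tested members in red with bars of 1 standard error. All 4 red points lie below 0 and within 1 standard error of it, and for miR-148a the sign changes with library size alone as the scaling (0.15).

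The other epithelial miRNAs were also compared between the diets, and 0 of the 5 tested were called by edgeR, as by DESeq2 and limma-voom, and 0 had an unadjusted p under 0.05. Of these 5, 3 had a negative estimate, and the median was -0.46. Over the same 5 it ran from -1.02 without replacement cow 1 to -0.18 without replacement cow 2. The summed share of all 7 went the other way, with a mean of 0.256% for control and 0.284% for replacement. Of this sum bta-miR-184, which was not tested, held 0.00378% for control and 0.0890% for replacement. The order of the summed shares turned without control cow 2 and without replacement cow 3. By the same 3 tools none of the cell type markers was called either, and among them 1, bta-miR-451, had an unadjusted p under 0.05 by edgeR. For the 4 of the red blood cell list, all negative, the median was -1.24 and rested on control cow 3. Without this cow the median was -0.30, 2 of the 4 were negative, none had an unadjusted p under 0.05, and the list held 7.32% in the control cows against 7.37% in the replacement cows. Without replacement cow 1, 2 or 3 there was also no unadjusted p under 0.05 by edgeR. In these fits all 4 were negative, with medians of -1.08, -1.05 and -1.67. The median was -0.08 for the 7 tested miRNAs of the leukocyte list, and its sign changed without control cow 2, to 0.34, without control cow 3, to 0.13, and without replacement cow 1, to 0.02. It was -0.16 for the 6 of the stroma and vessel list, and ran from -0.36 without replacement cow 3 to -0.00 without replacement cow 2. The liver miRNA bta-miR-122 had a log2 fold change of 0.34, which ran from -0.13 without replacement cow 3 to 0.71 without control cow 1. The muscle list had no miRNA tested.

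The families were finally compared within each cow, by the ratio of 1 member of each, bta-miR-148a to bta-miR-200c. With 0.5 added to each count, the log2 ratio was 6.32, 8.93 and 4.52 in control cows 1 to 3 and 5.54, 9.40 and 6.54 in replacement cows 1 to 3. Control cow 2 and replacement cow 2 were the highest, control cow 3 was the lowest, and the diets overlapped. The value of replacement cow 2 rests on 0 counts of bta-miR-200c and so is set by the added count and by the depth of the library. The mean was 6.59 ± 2.21 (SD, n = 3) for control and 7.16 ± 2.00 (SD, n = 3) for replacement, a difference of 0.57 that was smaller than either SD (exact permutation test, two-sided, p = 0.7, where the smallest possible p is 0.1). The difference changed sign without control cow 3, to -0.46, and without replacement cow 2, to -0.55. It was 1.29 with an added count of 0.1 and 0.30 with an added count of 1. For the ratio of the summed families the difference was 1.45, given as a value with no test. It rested on replacement cow 2, with 0 counts of the miR-200 family, and without this cow it changed sign to -0.55.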

How the data were processed

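By the methods of the study, Cutadapt 1.14 was used for trimming, and the authors aligned the reads to the cow genome (ARS-UCD1.2 in the processing notes), removed other RNA with Rfam, and named miRNAs by miRBase and miRDeep2. The authors deposited raw counts per mature miRNA and the same values as RPM. Their table of the diet comparison, with fold changes and p-values, was not used.

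Shares of known miRNA counts were computed per cow with Python 3.11.15, with 95% Wilson intervals from scipy 1.17.1. Diets were compared on all counts with edgeR 4.0.16 (TMM, filterByExpr, quasi-likelihood test, Benjamini-Hochberg adjustment) in R 4.3.3, and again with limma 3.58.1 and DESeq2 1.42.0. Further alternatives were other totals, scalings, filters and added counts, the cow number as a block, and each cow left out. The miRNAs named are the members, the lists, the neighbours in sequence and the 3 most alike in pattern. The members and lists were chosen with earlier results of these data known. Names given at 0 in a single cow were chosen after their values were seen.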

Additional observations from a re-analysis of the deposited data

Results flagged for a closer look

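Of 17 results checked for a cow far from the other 5, 4 stood out. The cutoff gives about 1 in 20 for independent values with a normal distribution. Shares here are skewed and some are 0, so that rate does not apply, and 4 of 17 is no measure of an excess. The share of bta-miR-152 was 0.0790% in replacement cow 3, against 0% to 0.0229% in the others. In control cow 3 the share of bta-miR-141 was 0.0180%, against 0% to 0.00567%, and rested on 11 counts. The red blood cell list held 17.7% in the same cow, against 4.87% to 9.31%. The muscle list held 0.0445% in replacement cow 3, against 0% to 0.0142%.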

How the results depend on the processing

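Of 194 values under other settings, 183 kept their direction and their side of the threshold or moved by less than the spread between cows, 7 moved further and 4 changed direction. Leaving out 1 cow could not move a mean share by more than this spread, so those settings were among the 183 in advance. Among them, the mean share of bta-miR-152 went from 0.0173% to 0.00492% without replacement cow 3. No member was called in any setting that tested it. The main fit tested 4 members, DESeq2 gave 6 an adjusted p, and only the fit with no filter gave every member one. By edgeR the number of diet calls was 0 with the filter on low counts and 15 with no filter, and DESeq2 gave 7. With each cow left out it ran from 0 to 1 by edgeR with the filter (1 without control cow 2 and 1 without control cow 3). The log2 fold change of bta-miR-148a was 0.15 with library size alone and ran from -1.11 to -0.15 with each cow left out. That of bta-miR-200a ran from -1.27 to 1.53 with each cow left out, and the difference in the ratio of bta-miR-148a to bta-miR-200c from -0.55 to 1.74. With the counts of all miRNAs as the total, the miR-148 family held 0.188%. Leaving out each cow for the ratio of the family sums, the difference of the diets in each family, the fold of bta-miR-148a over bta-miR-200a and the medians of the lists was chosen after the data were seen. Of these 54 values, 31 changed by at most 1.5 times or kept the sign of the ratio, 17 moved further and 6 changed direction. The difference of the diets in the miR-200 family ran from -0.0670 to 0.00482 percentage points, the median of the leukocyte list from -0.27 to 0.34, bta-miR-122 from -0.13 to 0.71, and the ratio of the family sums from -0.55 to 2.61. The median log2 fold change of all miRNAs was 0.17 with DESeq2 size factors, 0.23 with the RPM total, -0.26 with no filter and -0.22 with DESeq2. The causes were not tested. For members at a count of 0, the depth of the library set the share still allowed, from 0.00170% to 0.00491%.

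The sources used here do not state that cows with the same number were pairs. Their deviations correlated at -0.11, -0.16 and 0.18, against -0.26 to 0.32 for cows with unlike numbers. So few cows cannot settle whether they were pairs. With the number as a replicate block there were 0 calls, and bta-miR-148a was at -0.57, bta-miR-148b at -1.99, bta-miR-200a at -1.22 and bta-miR-205 at -1.84.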

Other observations

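Beside the 4 members, 7 known miRNAs were at 0 in replacement cow 2 while all other cows had counts: bta-miR-194, bta-miR-199a-5p, bta-miR-20a, bta-miR-214, bta-miR-296-3p, bta-miR-330 and bta-miR-362-5p. Of these, bta-miR-199a-5p and bta-miR-214 belong to the stroma and vessel list, and bta-miR-194 had 10 to 35 counts in the other cows. In replacement cow 3, bta-miR-16b, bta-miR-378, bta-miR-874 and bta-miR-96 were at 0 together with bta-miR-148b. Among the other epithelial miRNAs, bta-miR-184 had 157 counts in replacement cow 3, 40 in replacement cow 2 and 8 in control cow 1, and 0 in the remaining 3 cows.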
